A study of Mus musculus with 1778 samples.

Results

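The genes described here encode the proteins of the cytoplasmic ribosome. They were taken by symbol, as Rpl or Rps with a number, together with Rplp0, Rplp1, Rplp2, Rpsa and Fau, and pseudogene symbols ending in -ps were left out. The rule found 86 of the 24920 genes in the table, 52 of the large subunit and 34 of the small subunit. They were measured in single cells labelled as cranial neural crest, sorted singly from C57BL/6 mouse embryos that carried Wnt1::Cre and Rosa26TdTomato. Smart-Seq2, used here in plates, copies full-length messages and has no molecular identifiers. Wnt1::Cre is active in the dorsal neural tube, and its red label stays on in all descendants, so the sort takes every cell whose lineage once made Wnt1 and not neural crest alone. All 4 groups share this genotype and differ in stage: 1728 of 1778 cells were kept, 12.7% of them from embryos of 4 somites, 48.3% of 6, 13.1% of 8 and 25.8% of 10. Embryos and litters are not named in the labels. Each stage is therefore treated as 1 pool, cells were not used as replicates, and no test between groups of cells was made.

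A ribosome is built from a few ribosomal RNAs and a fixed set of proteins, nearly all present in a single copy, and the messages of these proteins are among the most abundant in growing cells. They share a tract of pyrimidines at the 5′ end, the terminal oligopyrimidine motif, through which the mTOR pathway controls their translation together. In the neural crest the ribosome is of medical interest because defects in ribosome assembly, as in Treacher Collins syndrome and Diamond-Blackfan anaemia, disturb the face and skull, and several mouse mutants of single ribosomal proteins have skeletal or pigment phenotypes.

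Start regions from RefSeq on GRCm38.p6, 250 bases before to 50 bases after each annotated start, were matched for 65 of the 86 genes. An unbroken run of at least 8 pyrimidines (C or T, on the gene's own strand), from 50 bases before to 50 bases after the start, was found in 54 of these 65 genes (83.1%), against 10560 of 26960 other genes (39.2%) and 35.7% of all promoters in the table. The letters CCGGAAG, a core of ETS factor sites, stood on either strand anywhere in the region in 26 of the 65 genes (40%), against 9.86% of the other genes and 8.86% of all promoters. AAGATGG, a core of YY1 sites, searched in the same way, stood in 11 of the 65 (16.9%), against 7.26% of the other genes and 6.34% of all promoters. These are matches of letters and not measured sites. The sequences are 80 bases (60 before to 20 after the annotated start) of 5 genes at the extremes of the measurements that follow, with the longest run of pyrimidines in capitals: Rpl4, a long and abundant message, at chr9:64173327-64173406 on the plus strand, Rpl38, Rpl39 and Rps28, short messages with large differences between runs or stages, at chr11:114668520-114668599 on the plus strand, chrX:37085203-37085282 on the minus strand and chr17:33824543-33824622 on the minus strand, and Rpl7l1, which did not vary with the others, at chr17:46782637-46782716 on the minus strand.
Rpl4: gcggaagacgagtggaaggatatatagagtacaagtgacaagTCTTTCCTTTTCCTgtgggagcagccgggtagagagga
Rpl38: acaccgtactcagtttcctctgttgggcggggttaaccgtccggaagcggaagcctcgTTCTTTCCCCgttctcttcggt
Rpl39: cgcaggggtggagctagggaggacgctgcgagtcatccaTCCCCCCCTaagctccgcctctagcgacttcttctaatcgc
Rps28: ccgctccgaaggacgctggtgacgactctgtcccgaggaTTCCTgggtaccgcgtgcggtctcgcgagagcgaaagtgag
Rpl7l1: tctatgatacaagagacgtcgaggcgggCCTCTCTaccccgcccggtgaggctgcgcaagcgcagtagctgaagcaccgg
The run was 14 bases long in Rpl4, 10 in Rpl38 and 9 in Rpl39. In Rps28 and Rpl7l1 the longest run in this window was 5 and 7 bases, so neither held a run of 8 there.

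The values are reads per gene, given as CPM, reads per 1000000 reads on genes without the spike-ins (ERCC, synthetic RNAs) and without Rn45s, the 45S precursor of ribosomal RNA. Summed over the cells of a stage, these reads, in units of 1000000, came to 108.7 at 4 somites, 301.4 at 6, 117.8 at 8 and 174.4 at 10. Each title pairs a well position with a number, which is read here as a plate although the labels do not say what it is. There were 8 such plates, lettered A to H in the order of the number, and each stage lay on 2 to 5 of them. The summed level of 10 neural crest markers was 232.97 CPM at 4 somites, 486.5 at 6, 999.8 at 8 and 1137 at 10, with Sox10 at 15.2 CPM at 4 somites and 284.7 at 10. Foxd3 (10.7 to 5.16 CPM) and Sox9 (105.2 to 52.4 CPM) fell from 4 to 10 somites, unlike the rest of that list. The 8 surface ectoderm markers (Cdh1, Epcam, Krt8 and others) summed to 522.2 CPM at 4 somites and 242.4 CPM at 10. The sum of 9 neuroepithelial markers was 361.9 CPM at 4 somites and 246.7 CPM at 10, though Nes (12.7 to 42.3 CPM), Hes5 (4.56 to 8.94 CPM) and Pax6 (9.75 to 11.3 CPM) rose. The 6 markers of blood were at 0 to 145.6 CPM by stage, those of heart (5 genes) at 2.14 to 24.3, those of endothelium (7 genes) at 85.5 to 170, those of head mesoderm (7 genes) at 37.2 to 81.1 and those of endoderm (5 genes) at 37.8 to 98.1. The 13 genes of dissociation stress summed to 711.03 CPM at 4 somites, 656.4 at 6, 289.5 at 8 and 427.5 at 10. These sums also differed between plates of 1 stage. Dissociation stress genes were at 199.2 CPM on plate D and 989.4 CPM on plate F at 4 somites. Surface ectoderm markers were at 30.2 CPM on plate G and 381.1 CPM on plate B at 10 somites. As pooled here, the stages therefore differed in their mix of cells, which cannot be told apart from plates. The part of this mix in the results below was not tested.

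Of the 86 genes, 78 reached 5 CPM at some stage, 45 of the large and 33 of the small subunit, and were compared. Each of these 78 had reads in at least 97.05% of the kept cells. Together the 86 genes took 3.46% of the counted reads, and 5 of them held 37.7% of these: Rpl4, at 4002 CPM over all kept cells, Rplp0 at 3635, Rpsa at 2219, Rps2 at 1599 and Rpl3 at 1573. Per kilobase of transcript the highest levels were those of Rplp0 (2677 CPM per kb), the base of the ribosomal stalk on which the elongation factors act, Rpl4 (2602), which lines the exit tunnel, and Rps2 (1602), followed by Rpsa (1388) and Rpl3 (1165), a protein of the peptidyl transferase region. The lowest among genes with at least 50 CPM at some stage were Rpl39 (65.5 CPM per kb), Rpl37 (89.2), Rps20 (92.7), Rpl27a (102.3), Rpl36a (109.9) and Rps4l (124.7). The value of Rps20 rests on a transcript model of 3706 bases and is doubtful. A ribosome holds nearly all of its proteins in a single copy. The read levels per kb of the 78 genes, paralogs among them, ran from 35.5 (Rpl11) to 2677, a range of 75.3-fold.

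The other 8 genes stayed below 5 CPM at every stage. Rpl10l, Rpl39l and Rpl3l, copies known from testis or muscle, had 0, 37 and 52 reads in all 1728 cells, and 0 reads allow a level of up to 0.00427 CPM. Rpl32l was at 0.416 CPM. Rpl26, Rpl30, Rpl34 and Rps27 are core proteins of every ribosome, yet Rpl26 had only 2 reads and the others were at 0.625, 1.12 and 0.248 CPM. How the authors counted reads that map to several places is not given, and named pseudogenes are common here: the GENCODE vM21 annotation names pseudogenes for 62 of the 86 genes, among them 6 for Rpl26, 9 for Rpl30, 2 for Rpl34 and 1 for Rps27. Rpl31 and Rps12, with 24 each, were at 112.4 and 103.9 CPM. These counts do not say how alike the sequences are, and the cause of the low values was not tested. Levels of single members are therefore uncertain, and ratios between groups of cells are used below.

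The first comparison asks whether the ribosomal protein messages as a whole changed with stage. They took 3.55% of the counted reads at 4 somites, 3.43% at 6, 2.96% at 8 and 3.79% at 10. The stage with the highest share was also the stage whose plates differed most. The 3 plates with cells of 10 somites gave 2.44%, 3.89% and 7.49%, the 2 of 4 somites 3.16% and 3.77%, and the 2 of 8 somites 2.65% and 2.98%. At 6 somites the 5 plates gave a lowest share of 3.22%, a median of 3.63% and a highest of 3.97% (SD 0.29995 percentage points, n = 5 plates, not labelled as replicates). The ranges of 4, 6 and 10 somites overlap, and the values of 8 somites lie below those of 4 and 6 somites and inside those of 10.

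**Figure D1:**
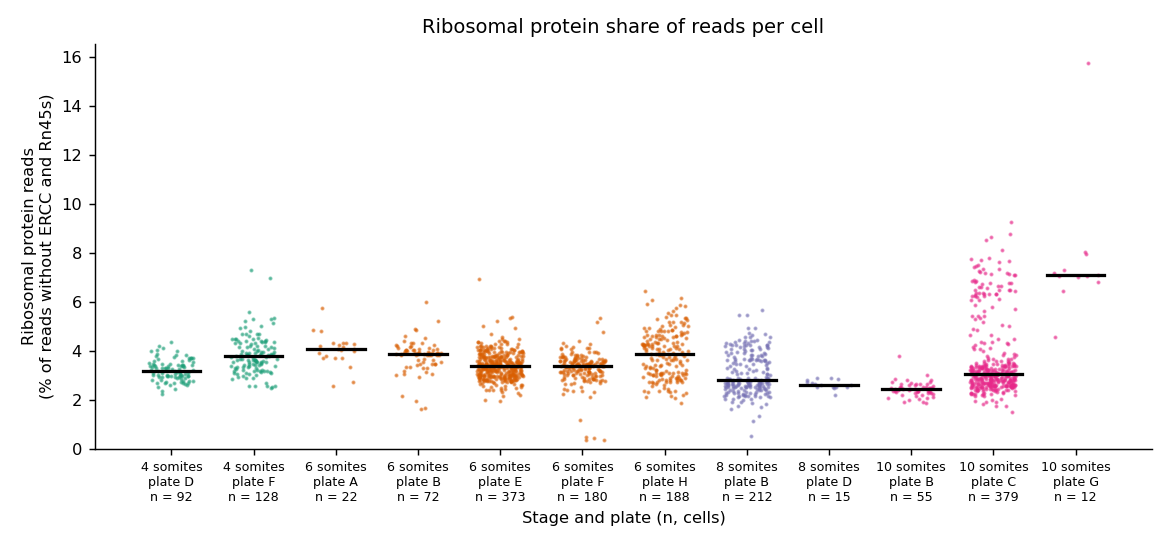
Ribosomal protein share of the reads of each kept cell (vertical axis, percent of reads without ERCC and Rn45s) by stage and plate (horizontal axis), each point a cell and each bar the median of its group. The 12 cells of 10 somites on plate G have a median of 7.07%, and those on plate C have a median of 3.05% with cells up to 9.28%.

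Between 4 and 6 somites the members hardly differed: the median log2 ratio of the 78 was −0.02, and 0 of them differed by 1.5-fold, where 6.51% of the 10391 genes measured were at least 1.5-fold higher and 2.97% at least 1.5-fold lower. From 6 to 8 somites the median was −0.35, with 13 of 78 at least 1.5-fold lower (11.3% of all genes) and 0 higher (8.59%). From 8 to 10 somites it was 0.65, with 42 of 78 at least 1.5-fold higher (3.58%) and 0 lower (4.98%). For 10 against 4 somites it was 0.32, with 8 of 78 at least 1.5-fold higher (12.5%), a share near the background, and 0 lower (12.6%). At 2-fold it was 0 of 78 higher (6.42%). The medians of all genes lay between −0.02 and 0.02 in these 4 comparisons. Both subunits moved alike, with medians of 0.53 (large) and 0.66 (small) from 8 to 10 somites. These comparisons share stages, so they are not independent of each other.

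The 8 genes that were higher at 10 somites were Rps28 (33.6, 34.2, 21.6 and 60.7 CPM at 4, 6, 8 and 10 somites), Rps21, Rpl39 (35.3, 36.3, 23.6 and 60.7 CPM), Rps29, Rps20, Rpl22l1 (73.2, 71.6, 59.4 and 117.6 CPM), Rpl37 and Rplp2, with log2 ratios from 0.59 (Rplp2) to 0.85 (Rps28). Each of these 8 ratios turned below 0 when 2 runs of well columns described further on were left out (−0.58 for Rps29 to −0.09 for Rps20) and when plates were held constant (−1.43 for Rps29 to −0.42 for Rpl37, chained over 6 somites). That chain holds the plates constant but not the runs. The 2 runs were picked after their high ribosomal protein shares were seen, so lower ratios without them follow from that choice. The count of 8 was 2 without plate G, 5 without plate D, 22 without plate B and 34 without plate F. Counting error is small at this depth: the 95% exact Poisson interval of Rps28 at 8 somites, from 2549 reads, was 20.8 to 22.5 CPM, and such intervals cover counting error only, since copies of 1 molecule cannot be recognised. Relative to the median member, with the same sign within plates, the highest ratios of 10 against 4 somites were those of Rpl39 (0.47), Rpl22l1 (0.37), Rpl37 (0.36), Rpl24 (0.23) and Rpl37a (0.20). The lowest were those of Rps2 (−0.48), Rplp0 (−0.43), Rpl3 (−0.38), Rpl13a (−0.34) and Rpl8 (−0.33), which are longer messages.

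With the plate held constant, the picture was another. On plate F the median ratio between 6 and 4 somites was −0.13, with 0 of 78 genes at least 1.5-fold higher (8.33% of all genes) and 1 lower (6.12%). On plate D it was −0.30 for 8 against 4 somites, from only 15 cells of 8 somites, with 0 of 78 genes past 1.5-fold (18.6% of all genes higher and 17.5% lower). On plate B, which held 3 stages, it was −0.28 for 8 against 6 somites, with 0 of 78 genes past 1.5-fold (11.7% higher and 6.46% lower). For 10 against 8 somites on that plate it was −0.36, with 14 of 78 genes at least 1.5-fold lower (10.5% of all genes) and 0 higher (4.98%). For 10 against 6 somites it was −0.65, with 54 lower (14.6%) and 0 higher (14.3%). The step from 8 to 10 somites thus went up over all cells and down on the only plate that held both stages. Chained over plates by way of 6 somites, the median of 10 against 4 somites was −0.78, with 64 of 78 genes at least 1.5-fold lower (18.6% of all genes) and 0 higher (20.5%). By way of 8 somites it was −0.65, with 48 lower (23.1%) and 0 higher (18.8%). Neither chain holds constant the runs of well columns described next.

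The split lay within plates as well. The median ERCC share of the cells changed in steps along the well columns of a plate. A run of well columns was defined to end where the median differed by 2-fold or more from that of the next column with kept cells. A run can therefore span columns without kept cells. This gave 18 runs, or 21 groups of 1 run and 1 stage. Runs were defined from the spike-ins alone, but after the ribosomal protein share by well column had been seen, and the labels do not say what the steps are. On plate B, columns 1 to 13 had a median ribosomal protein share of 3.88% in cells of 6 somites and 3.84% in cells of 8 somites. In columns 14 to 24 the medians were 2.55% in cells of 8 somites and 2.43% in cells of 10 somites. The share followed the run and not the stage: cells of 8 somites stood with those of 6 in the first run and with those of 10 in the second. The ERCC median was 0.236% and 0.282% in the first run and 2.002% and 1.64% in the second. On plate F the cells of 6 somites lay in columns 1 to 12 (ERCC median 2.80%). Its cells of 4 somites lay in other runs, columns 13 to 18 (0.326%) and 19 to 21 (0.0456%). Both steps of the chain over 6 somites therefore crossed runs, and that chain cannot tell stage from run. In the chain over 8 somites, the step on plate B set cells of 10 somites in columns 14 to 24 against cells of 8 somites in both runs. That chain does not hold the run constant either.

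**Figure D2:**
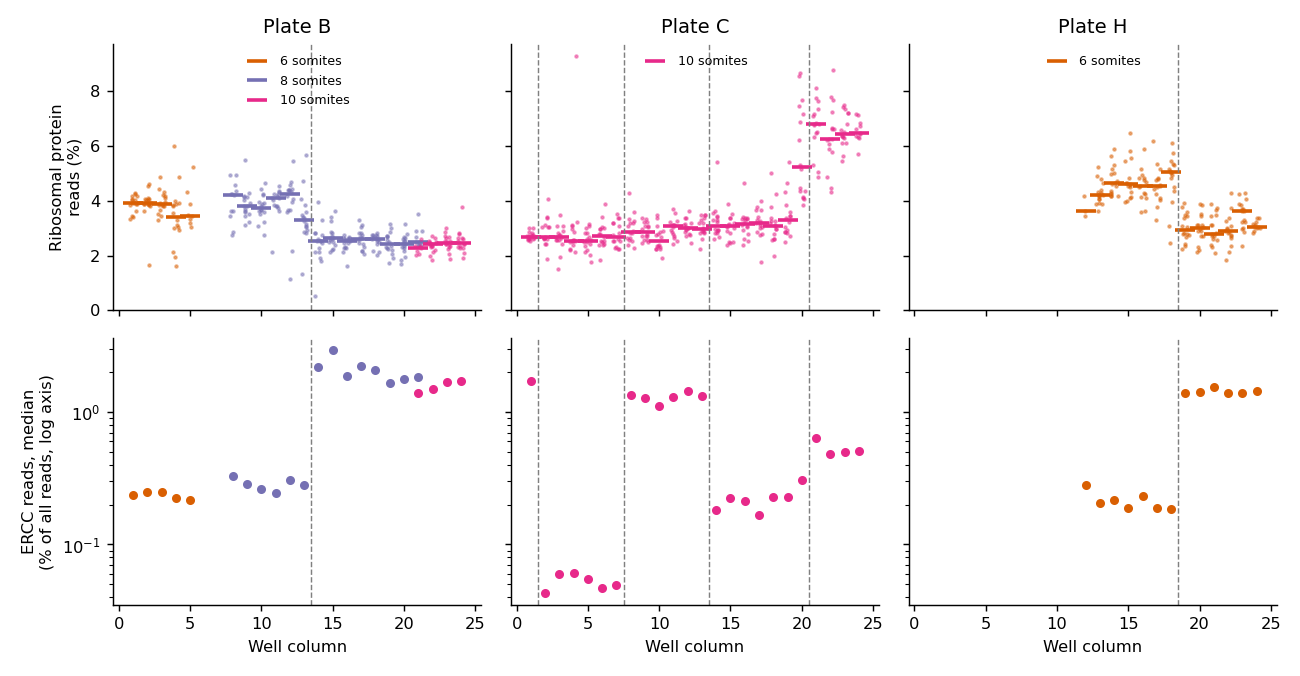
Ribosomal protein share of each cell (upper panels, percent, with a bar for the median of each well column) and median ERCC share of each well column (lower panels, percent of all reads, log axis) along 3 plates, coloured by stage, with dashed lines between runs. On plate B the step at column 14 falls inside the cells of 8 somites, whose medians are 3.84% before it and 2.55% after it.

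The runs with the highest values were both of 10 somites. On plate C, all of 10 somites, the medians of the runs were 2.69% in column 1, 2.65% in columns 2 to 7, 2.92% in columns 8 to 13, 3.22% in columns 14 to 20 and 6.50% in columns 21 to 24. Column 20 itself had a median of 5.24%, so the rise began 1 column before the step in ERCC. Column 1 of plate G had a median of 7.07%. Of the 73 cells above 6%, 59 were among the 71 cells of these 2 runs. At 6 somites, plate H had a median of 4.54% in columns 12 to 18 and 3.04% in columns 19 to 24. The level of ERCC did not order the runs: columns 2 to 7 of plate C had the lowest ERCC median of that plate, 0.0509%, and its lowest ribosomal protein median. Over the 21 groups Spearman's rho between the medians was −0.28 with ERCC, −0.19 with the Rn45s share and 0.15 with detected genes, as a description over groups that share plates and stages.

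Of the variance of the share between cells, 2.47% lay between stages and 59.7% between the 21 groups. These groups divide the 4 stages further, so the second part contains the first and rests on more groups. Within a stage, 27.2% lay between runs at 4 somites, 34.8% at 6, 54.9% at 8 and 70.8% at 10. Without the 2 high runs, a choice made after their values were seen, the share at 10 somites was 2.94% in place of 3.79%. The median ratio was then 0.05 for 10 against 8 somites, with 0 of 78 genes at least 1.5-fold higher (3.15% of all genes) or lower (4.29%), and −0.34 for 10 against 4, with 4 genes lower (12.6%) and 0 higher (13.9%).

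Comparing stages within 1 run of plate B gave small differences. In columns 1 to 13 of plate B, 91 cells of 8 somites against 72 of 6 somites had a median member ratio of 0.06, and 0 of 78 genes passed 1.5-fold in either direction (8.48% of all genes higher and 5.97% lower). In columns 14 to 24, 55 cells of 10 somites against those of 8 somites had a median of −0.09, again with 0 of 78 (5.48% higher and 9.72% lower). These are 2 runs of 1 plate, and no run held cells of 4 and of 10 somites. By the same rule the cells of plate D fell in 1 run. Its 15 cells of 8 somites, all in column 24, gave a median of −0.30 against those of 4 somites in columns 6 to 12.

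Comparing runs within 1 stage gave large differences. At 8 somites, columns 8 to 13 against 14 to 21 of plate B had a median member ratio of 0.64, with 48 of 78 genes at least 1.5-fold higher (8.19% of all genes) and 0 lower (8.90%). At 6 somites, columns 12 to 18 against 19 to 24 of plate H had a median of 0.75, with 57 of 78 higher (7.34%) and 0 lower (9.26%). At 10 somites, columns 21 to 24 against 14 to 20 of plate C had a median of 1.20, with 70 of 78 higher (12.5%) and 0 lower (25.6%), where the median of all genes was −0.19. Against columns 2 to 7 the median was 1.76, with 76 of 78 higher (13.5%). At 4 somites the runs of plate F differed little, with a median of 0.07, 1 gene higher (15%) and 2 lower (13.2%). These pairs of runs were picked with their shares in view, so the ratios describe how the members shared the difference and do not support that there is one.

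**Figure D3:**
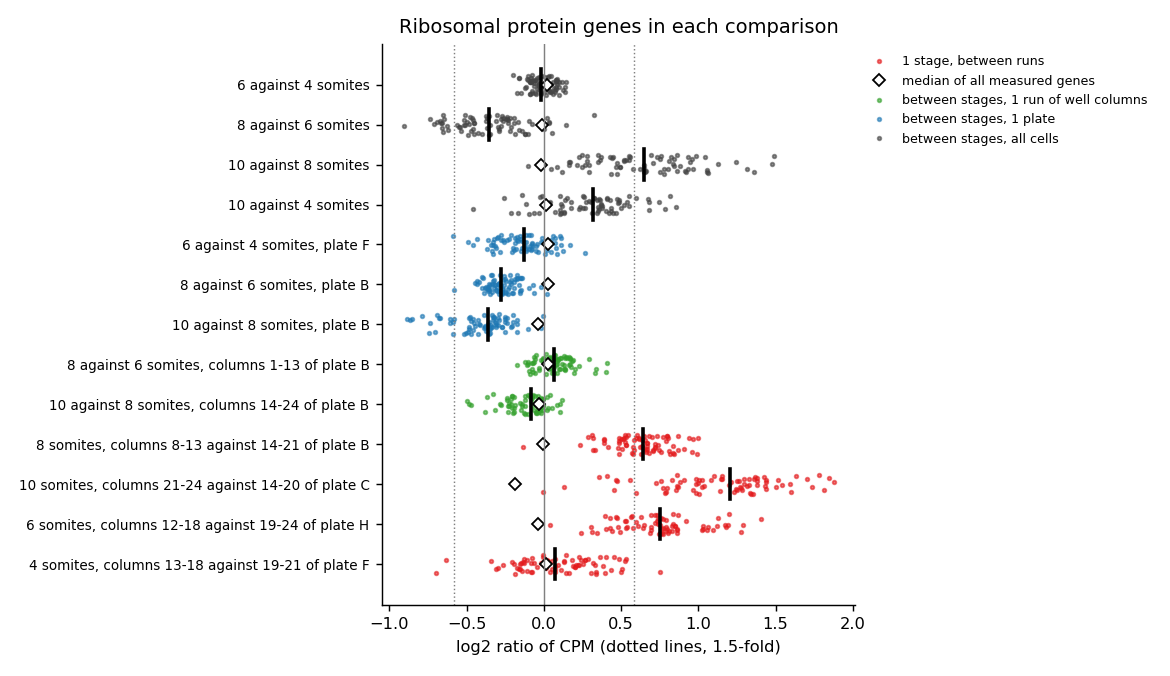
Log2 ratio of CPM (horizontal axis) of each of the 78 measured ribosomal protein genes (points) in 13 comparisons, with a bar at their median and a diamond at the median of all 10391 measured genes. Within a run of well columns of plate B the members lie around 0 (medians 0.06 and −0.09), and between runs of 1 stage their medians are 0.64, 1.20, 0.75 and 0.07.

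Other measures moved with these runs. In the pair of 10 somites the median Rn45s share was 31.96% in columns 21 to 24 and 56.9% in columns 14 to 20, the median of reads without Rn45s per cell was 564731 and 290404, and surface ectoderm markers summed to 43.6 and 131.9 CPM and neural crest markers to 898 and 1191 CPM. At 8 somites Rn45s was at 44.2% and 41.9%, reads at 471240 and 545541, and blood markers, mostly haemoglobins, at 389.3 and 0.181 CPM. At 6 somites Rn45s was at 63.8% and 67.2% and reads at 226543 and 327268. Endothelial markers summed to 71.3 and 158.75 CPM in the pair of 10 somites, 195.5 and 146.5 CPM in that of 8 and 146.5 and 461.5 CPM in that of 6. Head mesoderm markers summed to 46.6 and 134.9 CPM, 105.9 and 72.1 CPM, and 67.8 and 121.97 CPM in the same order. The dissociation stress genes were at 308.6 and 430.5 CPM, 305.3 and 284.7 CPM, and 236.3 and 328.99 CPM. In each of the 3 pairs the run with more ribosomal protein reads had fewer surface ectoderm reads and more detected genes. For surface ectoderm the sums were 248.8 and 445.6 CPM at 8 somites and 354.3 and 506.3 CPM at 6. Detected genes per cell had medians of 7905 and 7676 at 10 somites, 8266 and 7221 at 8, and 7522 and 6705 at 6. The Rn45s share, the reads per cell, the ERCC share, endothelium, head mesoderm and dissociation stress differed in both directions over the pairs. The part of these measures in the ribosomal protein difference was not tested. Whether a run differs in its cells or in its handling cannot be told apart here.

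In the pairs of 10 and 6 somites short members moved more between runs than long ones. Over the 78 genes Spearman's rho between transcript length and the ratio was −0.66 for the runs of 10 somites, −0.54 for those of 6 and −0.26 for those of 8, as a description across genes, which are not independent. In the pair of 10 somites the 27 members of up to 600 bases had a median ratio of 1.38, the 33 of 600 to 1000 bases 1.03 and the 16 of 1000 to 2000 bases 0.86. Other genes of these lengths gave 1.11, 0.81 and 0.25, so short genes as a whole stood higher in this run. The runs of 4 somites on plate F went the other way, with a rho of 0.42 and medians of −0.08, 0.16 and 0.21 in the 3 classes, against −0.24, −0.11 and 0.00 in other genes. For 6 somites the members' medians were 0.84, 0.72 and 0.61, and those of other genes 0.41, 0.19 and 0.01. For 8 somites they were 0.67, 0.59 and 0.64 against 0.33, 0.23 and 0.10. The members exceeded other genes of like length in each class of the 3 pairs, and the excess was largest among those over 1000 bases.

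**Figure D4:**
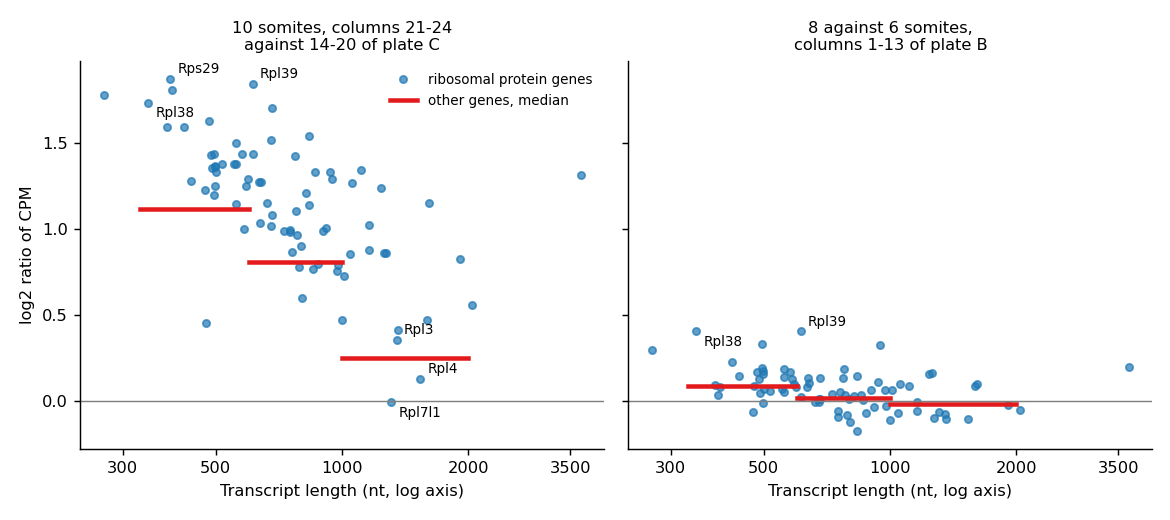
Log2 ratio of CPM (vertical axis) against transcript length (horizontal axis, nucleotides, log axis) for the 78 genes (points), with the median of other genes in 3 length classes (bars), between 2 runs of 10 somites (left) and between 8 and 6 somites within a run (right). On the left Rps29 is at 1.88 and Rpl4 at 0.13, and on the right the members lie between −0.17 and 0.41.

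Taken by their roles, the stalk proteins differed among themselves. Rplp1 and Rplp2, the small acidic proteins of the stalk, had ratios of 1.36 and 1.60 in the pair of 10 somites, 1.29 and 1.06 in that of 6 and 0.99 and 0.84 in that of 8. Rplp0, the long protein that anchors them, had 0.41, 0.48 and 0.53. Rplp0 was at 2884 CPM in columns 14 to 24 of plate B at 8 somites and 4167 CPM in columns 1 to 13.

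Among the proteins known from mouse mutants with skeletal or pigment phenotypes, Rpl38, whose loss in the Tail short mouse changes vertebral identity, was the most variable. It stood at 20.66 CPM at 4 somites, 22.8 at 6, 12.1 at 8 and 30.2 at 10. Over the runs its lowest and highest levels were 13.5 and 34.4 CPM for 4 somites, 12.4 and 29.6 CPM for 6, 9.39 and 16.5 CPM for 8, and 6.79 and 139.6 CPM for 10. Its range at 10 somites contains its ranges at the other stages, and without the 2 high runs its ratio of 10 against 4 somites was −0.65 in place of 0.55. Rps20 and Rps19, whose mutants have dark skin, had ratios of 1.32 and 1.27 in the pair of 10 somites, and Rps7 had 1.21. Rpl24, mutated in the Belly spot and tail mouse, had 1.52, and Rpl27a 1.02. All 6 of these genes were between −0.06 and 0.41 for 8 against 6 somites within columns 1 to 13 of plate B.

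Rps29 had the highest ratio of the 78 genes in the pair of 10 somites, 1.88. It was at 15.5, 26.3 and 28.8 CPM in the 3 runs of 4 somites, and the 8 runs of 6 somites gave 14.6 to 33.4 CPM. The 3 runs of 8 somites gave 10.8, 11.9 and 18.7 CPM, and the 7 runs of 10 somites 7.66, 9.39, 12.8, 14.4, 26.9, 98.9 and 195.7 CPM. Both the lowest and the highest level of the gene were at 10 somites, and only the 2 high runs stood above all runs of the other stages. Rpl4, at the other end, was between 3347 and 4785 CPM in all 21 groups.

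Rpl5 and Rpl11, which form the particle with 5S RNA that restrains Mdm2 when ribosome assembly fails, had ratios of 0.56 and 1.14 in the pair of 10 somites and 0.39 and 0.49 in that of 8. Rpsa, the laminin receptor protein of the small subunit, had 0.47 and 0.66, and Fau, made as a fusion with a ubiquitin-like protein, 1.23 and 0.51. The X-linked Rps4x and Rpl10 had 0.76 and 0.90 at 10 somites and 0.68 and 0.84 at 8.

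The paralogs did not all behave as the core genes. Rpl7l1, related to Rpl7 and known as a factor of nucleolar assembly more than a ribosomal protein, had ratios of −0.01, 0.04 and −0.13 in the pairs of 10, 6 and 8 somites and stayed between 297.7 and 402.8 CPM over the 21 groups. It was the lowest of the 78 genes in each of these 3 pairs. Rps27l, the copy of Rps27 that p53 induces, had 1.37, 0.43 and 0.24. Rpl22l1, the copy of Rpl22, had 1.38, 0.74 and 0.64, while Rpl22 itself had 0.45, 0.75 and 0.65. Rps4l, a copy of Rps4x that GENCODE lists as a transcribed processed pseudogene, was at 117.1, 110.5, 70.1 and 85.1 CPM at 4, 6, 8 and 10 somites and had the lowest ratio of 10 against 4 somites of the 78 genes, −0.46 (−0.27 chained within plates).

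Most of the variation was shared. Over the 17 groups of run and stage with at least 30 cells, the SD of a member's log2 CPM had a median of 0.48, and the SD of its log2 CPM relative to the median member had a median of 0.19. The second was the smaller in 71 of 78 genes. The members that kept closest to the median member were Rps27a (SD 0.0973) and Rpl13 (0.118). Those that kept least close were Rpl7l1 (0.54), Rpl38 (0.47), Rps4l (0.41) and Rpl22 (0.41), and for Rpl7l1 and Rpl4 the SD of the level itself was only 0.11 and 0.14, since they stayed level while the median member moved.

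Between consecutive stages, with the same sign within plates, Rpl22 moved most against the median member. From 6 to 8 somites its ratio relative to the median member was 0.68, from a ratio of 0.32, but on plate B its ratio was −0.27, nearly that of the median member, −0.28. Rpsa (0.41) and Rpl7l1 (0.35) followed in that step, and Rpl36 (−0.31), Rps26 (−0.30) and Fau (−0.29) were at the other end. From 8 to 10 somites Rpl37 (0.40), Rpl22l1 (0.34) and Rpl35a (0.32) stood highest relative to the median member and Rpl8 (−0.49), Rpl22 (−0.43) and Rpl7 (−0.37) lowest. From 4 to 6 somites the extremes were Rps15 (0.16) and Rps2 (−0.18), both small.

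The next comparison sets the proteins beside the RNA they join. Rn45s is the precursor from which most of the ribosomal RNAs are cut, and its share of a cell's reads on genes had a median of 55.3% in the kept cells. Counts per gene do not tell reads of the precursor from reads of the ribosomal RNAs cut from it. The share is therefore not a measure of the precursor alone. Within each stage and plate with at least 60 cells, the upper tercile of cells by Rn45s share was compared with the lower tercile. The upper tercile had fewer reads without Rn45s per cell in each group, with medians of 278000 and 477876 on plate C at 10 somites. Over the cells of a group, Spearman's rho between the ribosomal protein share and these reads ran from −0.72 (plate H) to 0.16 (plate C). Depth and Rn45s share therefore differed together, and the part of depth was not tested. The median member ratio was above 0 in 6 of these 8 groups and below 0 in 2, with a median of 0.11 and a range from −1.05 to 0.30. In 6 of the 8 groups, 0 of the 78 genes passed 1.5-fold. At 4 somites on plate F the ratio was 0.30 (11.2% of all genes at least 1.5-fold higher and 17.2% lower) and at 6 somites on plate F it was 0.21 (11.8% and 17.9%). On plate E at 6 somites it was 0.02 (7.27% and 7.88%). On plate B at 6 somites it was −0.20, with 3 genes at least 1.5-fold lower (10.8% of all genes).

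The group that went most the other way was plate C at 10 somites, where 70 of 78 genes were at least 1.5-fold lower in cells with a high Rn45s share (9.70% of all genes). That plate holds columns 21 to 24, where the median ribosomal protein share was 6.50% and the median Rn45s share 31.96%. Within single runs of at least 60 cells the median ratio was 0.04 over 14 groups, from −0.99 to 0.43, above 0 in 9 and below 0 in 5. The value of −0.99 came from columns 14 to 20 of plate C, where column 20 had a Rn45s median of 48.4% and column 19 of 56.01%, while columns 2 to 7 and 8 to 13 gave −0.06 and −0.00. Across cells within runs Spearman's rho between both shares ran from −0.25 in columns 14 to 20 of plate C to 0.61 in columns 19 to 24 of plate H (91 cells), as a description of cells that share a plate. Relative to the median member Rpl6 (0.13), Rpl7 (0.12), Rpl7a (0.11), Rpsa (0.10) and Rpl13 (0.10) stood highest, and Rpl37 (−0.18), Rps25 (−0.17), Rpl22l1 (−0.15), Rpl36a (−0.13) and Rps15a (−0.12) lowest.

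The last comparison asks whether cells that carry reads of Sox10, which encodes a regulator of early neural crest, differ from cells of the same stage and plate without them. Within plates the differences were small. The median member ratio was above 0 in 6 of 8 groups and below 0 in 2, with a median of 0.06 and a range from −0.04 (4 somites, plate F, where only 14 cells had reads) to 0.19 (10 somites, plate C, where 80 cells had none). In each of the 8 groups, 0 of the 78 genes differed by 1.5-fold, where 6.15% to 13.8% of all genes were at least 1.5-fold higher and 14.6% to 24.7% at least 1.5-fold lower. The median of all genes was below 0 in each group, down to −0.09. Cells with Sox10 reads had more detected genes in each of the 8 groups, with medians of 7546 against 7123 on plate C, and the part of this was not tested. Within single runs the median was 0.07 over 15 groups, above 0 in 12, with a range from −0.09 to 0.41. The value of 0.41 came from columns 14 to 20 of plate C, where 10 of 78 genes were at least 1.5-fold higher in cells with Sox10 reads (9.42% of all genes) and 0 lower (21.6%). The share of genes higher was not far from the background. That run holds column 20, with a median ribosomal protein share of 5.24%. Summed over cells with and without Sox10 reads, the share in this run was 3.88% and 3.17%, while the medians of the cells were 3.26% and 3.10%. In the other 14 groups 0 genes were higher and at most 1 was lower.

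**Figure D5:**
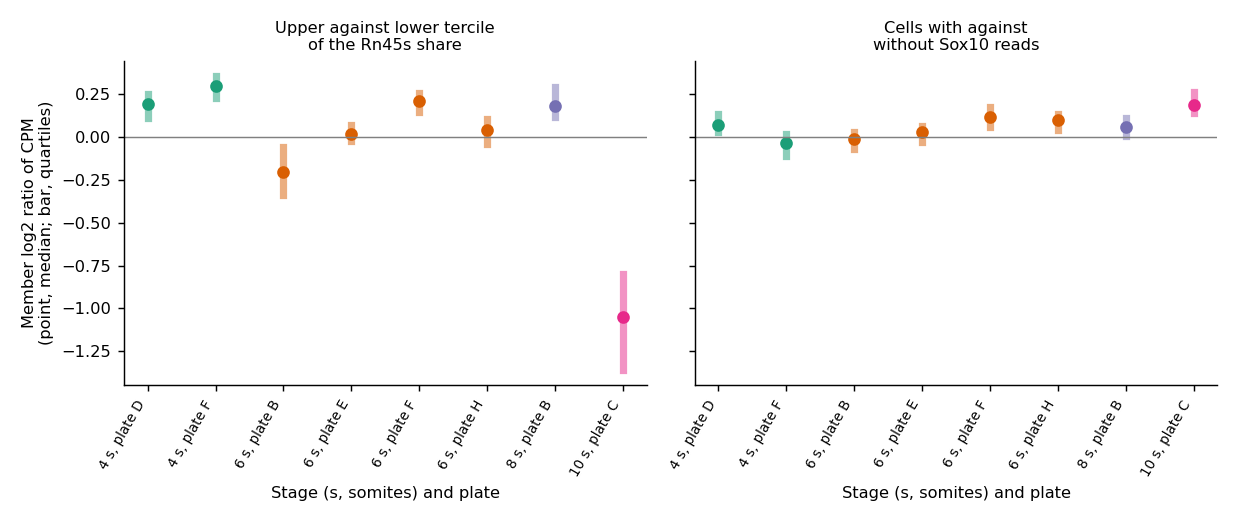
Median log2 ratio of the 78 genes (points, with bars for the quartiles over genes) between cells of high and low Rn45s share (left) and between cells with and without Sox10 reads (right), for each stage and plate (s, somites), coloured by stage. The Rn45s ratios run from −1.05 to 0.30 and the Sox10 ratios from −0.04 to 0.19.

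The lowest median ratio relative to the median member was that of Rpl22. This gene encodes a protein of the large subunit that is dispensable for most cells and known for its role in lymphocytes. It was below the median member in each of the 8 groups, by −0.41 to −0.08 with a median of −0.29, and in each of the 15 groups of single runs. The naming rule asks for a sign repeated over nearly all of the 8 groups, so this agreement is partly built in. The groups of single runs split the same cells again. At 4 somites Rpl22 was at 134.9 CPM in cells with Sox10 reads and 141.3 in cells without on plate D, and at 145.6 and 157.9 on plate F. At 6 somites it was at 193.5 and 232.4 on plate B, 89.2 and 113.3 on plate E, 94.5 and 115.8 on plate F and 163.9 and 170.9 on plate H. At 8 somites it was at 159.96 and 195.5 on plate B, and at 10 somites at 198.2 and 218.1 on plate C. Cells with Sox10 reads were lower in each pair, but by less than 1.5-fold in each, and the levels differ more between plates than between the classes. Rps4l came next, by the median (−0.17), but was lower in only 6 of 8 groups. Next by the naming rule, at a much smaller size, were Rpl36a (−0.08), Rpl37 (−0.06), Rps13 (−0.05) and Rpl12 (−0.04) on the low side, and Rpl7l1 (0.08), Rplp1 (0.08), Rpl37a (0.08) and Rplp0 (0.07) on the high side.

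Other genes of protein synthesis moved less by the medians of their lists, though single genes differed. The 78 mitochondrial ribosomal proteins measured had medians of 0.07 for 10 against 4 somites, with 4 at least 1.5-fold higher (12.5% of all genes), and 0.19 in the pair of runs of 8 somites, with 1 of 78 higher (8.19%). In the pair of 10 somites their median was 0.75 with 51 of 78 higher (12.5%). Mrpl30 (0.75) and Mrpl45 (−0.49) were the extremes for 10 against 4 somites, and chained over 6 somites they were at −0.13 and −0.32. The 44 translation factors had medians of 0.05 for 10 against 4 somites and 0.13, 0.15 and 0.20 in the pairs of 8, 6 and 10 somites. Within this list Eif1 had 0.60, 0.74 and 0.66 in these pairs, Eif4a1 0.63, 0.59 and −0.01, Eef2 0.55, 0.53 and −0.47, and Eif2s1 −0.23, −0.15 and 0.18. For 10 against 4 somites Eif4ebp1, a repressor of cap-dependent translation, was at 0.48 (0.27 chained over 6 somites). Eif6, which keeps the subunits apart, was at −0.31 (−0.45 chained). The 44 genes of ribosome assembly had medians of 0.13 for 10 against 4 somites and −0.07, 0.05 and 0.07 in the 3 pairs of runs. For 10 against 4 somites Nop14 was at 0.49 (0.24 chained) and Sbds at −0.32 (−0.02 chained). Tcof1, mutated in Treacher Collins syndrome, was at 203.95, 180.04, 299.9 and 269.6 CPM at 4, 6, 8 and 10 somites, a ratio of 0.40 (−0.67 chained within plates).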

How the data were processed

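Counts of reads per gene and cell were deposited by the authors as 1 table of 24920 genes, 92 ERCC spike-ins and 1778 cells, without normalization. Per the submitters' processing notes, bcl2fastq 2.18, STAR 2.6 and mm10 were used. For the read counter, annotation, reads with several positions and the meaning of the plate number in the titles: not given in the sources used here. Stages come from the labels, and plates were lettered in the order of that number.

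Of the cells, 50 with fewer than 50000 gene reads or 1500 detected genes were left out, and 0 of the 1728 kept cells were identical columns. Kept cells had 10736 to 1007751 reads without Rn45s (median 387020). Reads were summed over the cells of a group, divided by the total without ERCC and Rn45s and compared as log2 ratios with 0.5 reads added, over genes with at least 5 CPM at some stage (10391 genes, 78 members). A gene counts as higher or lower past 1.5-fold, beside the share of all genes past it. Fits and tests between groups were not made, as each stage is 1 pool. Intervals are exact Poisson intervals at 95%. Transcript length was that of the shortest coding transcript of the best APPRIS rank in GENCODE vM21, chosen in place of the longest after values per kb had been seen. Genes were named by a rule of rank: extremes relative to the median member at 50 CPM or more with a repeated sign, the highest and lowest levels per kb, and fixed genes of known roles (stalk, mutants, 5S particle, paralogs, Rpsa, Fau, Rps4x, Rpl10). Rpl11, Rpl4, Rps28, Rps29, Rps21, Rps4l at its extremes and Tcof1 were added after their values were seen. The values of 1 gene that the rule names are not reported here. Members and lists were chosen with earlier results of these data known. The arithmetic was tested on simulated data. Python 3 with pandas and numpy was used, and edgeR TMM factors and DESeq2 size factors served for scaling alone.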

Additional observations from a re-analysis of the deposited data

Results flagged for a closer look

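Gene symbols that resemble the members but fall outside the rule also carried reads over the 1728 kept cells, and no comparison above uses them. Rpl36al, a copy of Rpl36a, was at 68.8 CPM, above Rpl36a itself at 53.1 CPM. The pseudogene Rpl14-ps1 was at 39.98 CPM, beside Rpl14 at 818.2 CPM. Rpl37rt was at 3.04 CPM, Rps15a-ps6 at 0.797, Rps15a-ps4 at 0.449, Rps19-ps3 at 0.355 and Rpl31-ps12 at 0.0498 CPM. Each lies above the limit of 0.00427 CPM that 0 reads would allow, and Rpl34-ps1, Rplp2-ps1, Rps27rt and Gm15772 had 0 reads. Dixon's criterion was applied only at 6 somites, the stage with 5 plates, and none of these plates passed it.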

How the results depend on the processing

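Direction and size of the stage differences depended on which cells entered. Spread was taken as 1 SD at 6 somites over 5 plates (0.29995 percentage points for the share, 0.11 for the median member log2 CPM). No paired analysis was possible because cells carry no replicate number that pairs them across stages, and the comparisons within plates and within runs stand in its place. With Rn45s in the total, the share was 1.598%, 1.40%, 1.65% and 1.89% at 4, 6, 8 and 10 somites, the median member ratio −0.16 for 6 against 4, 0.090 for 8 against 6, 0.49 for 10 against 8 and 0.47 for 10 against 4 somites, and 20 genes were higher. With the mean of CPM per cell, 10 against 8 was 0.46 and 10 against 4 was 0.15, with 2 genes higher. With equal weight per plate, the share at 10 somites was 4.61%, 10 against 8 was 1.17 and 10 against 4 was 0.85, with 52 higher. With equal weight per run these ratios were 0.78 and 0.50, with 27 higher. At 2-fold 0 were higher, and without a minimum CPM 2 were lower. Within plates over 6 somites 0 were higher and 64 lower, and over 8 somites the median was −0.65. Neither chain holds the runs constant. edgeR TMM factors moved the Sox10 median to 0.14.

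Leaving out each plate in turn gave shares of 3.16% to 3.77% at 4, 3.38% to 3.51% at 6, 2.65% to 2.98% at 8 and 3.43% to 4.07% at 10 somites, ratios of −0.13 to 0.24 for 6 against 4, −0.50 to −0.34 for 8 against 6, 0.54 to 0.90 for 10 against 8 and 0.19 to 0.55 for 10 against 4, and 2 to 34 genes higher and 0 lower. The count of higher genes was 2 without plate G, 5 without plate D, 22 without plate B and 34 without plate F.

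Added after the data were seen: without the 2 high runs the share at 10 somites was 2.94%, 10 against 8 was 0.050 and 10 against 4 was −0.34, with 0 higher and 4 lower. Within a run 8 against 6 was 0.065 and 10 against 8 was −0.085. The 8 genes higher at 10 somites were then below 0: without the 2 runs Rps28 was at −0.39, Rps21 −0.30, Rpl39 −0.42, Rps29 −0.58, Rps20 −0.091, Rpl22l1 −0.094, Rpl37 −0.19 and Rplp2 −0.35, and chained within plates −1.06, −1.10, −0.66, −1.43, −1.14, −0.70, −0.42 and −0.88 in that order. The cause was not tested. Rpl22 relative to the median member in Sox10 classes stayed between −0.31 and −0.24 under the 6 alternatives run for it. Among alternative values of the main results 47 lay beyond the spread (or beyond 1.5 times a count), and 10 median ratios had the other sign from the reported one, 5 of them for 6 against 4 somites, where the reported ratio is near 0. The depth limits genes under 5 CPM, Rpl26 and Rpl10l among them.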

Other observations

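In 5 cells the ribosomal protein share was under 1%, from 0.335% to 0.525%. They lay on 2 plates and at 2 stages, had 4858 to 7344 detected genes, where the median over all kept cells was 6978.5, and had a Rn45s share of 14.3% to 31.9%. At the other end, 1 cell in column 1 of plate G had a share of 15.8%.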
